A study of Mus musculus with 6 samples.

Results

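The transcripts of 10 integrin chains were examined: the alpha chains Itgal, Itgam, Itgax, Itga4, Itgae and Itgav, and the beta chains Itgb1, Itgb2, Itgb3 and Itgb7. They were taken by symbol, and all 10 had a row among the 37620 genes of the deposited count table. The libraries came from splenic B cells of C57Bl/6 mice aged 4 months, cultured with anti-CD40 (1 µg/ml) and IL-4 (12.5 µg/ml), a pair of signals that imitates T cell help. The cells were spun with retrovirus at 24 and 48 h. One group received the vector pMIR and the other pMIR-Sox2, and both were sorted at 96 h on the mCherry of the vector. Each group held 3 libraries of total RNA. Nothing in the labels ties a replicate to its own animal, so p-values measure only the spread between these libraries. The sort selected infected cells and not a B cell subset, and the control carries the vector, the culture and the sort but no Sox2 insert.

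Integrins are surface receptors made of 1 alpha and 1 beta chain, and neither chain normally reaches the cell surface alone. The chains of this set form LFA-1 (Itgal with Itgb2), Mac-1 (Itgam with Itgb2), CD11c/CD18 (Itgax with Itgb2), VLA-4 (Itga4 with Itgb1), the gut homing receptor of Itga4 with Itgb7, the E-cadherin receptor of Itgae with Itgb7, and the vitronectin receptor of Itgav with Itgb3. On B cells LFA-1 and VLA-4 are the main receptors for ICAM-1 and VCAM-1, which hold B cells in the lymphoid follicle and in contact with other cells. Itgam and Itgax are best known from myeloid cells and also mark some B cell subsets.

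Gene counts ran from 17153805 to 27692437 per library, and levels below are in CPM, counts scaled to library size after TMM normalisation, a measure relative to the other transcripts. Fewer cells of a type and less RNA per cell cannot be told apart in it. Sox2 was at 0.949 ± 0.744 CPM (SD, n = 3) in pMIR and 800 ± 183 CPM (n = 3) in pMIR-Sox2, in the direction of the labels. The B cell markers Cd79a and Cd79b were above 200 CPM in every library. Of the 6 T cell markers and the 5 NK cell markers, all 11 were under 1 CPM in every library. The test was edgeR's quasi-likelihood test with Benjamini-Hochberg adjustment over all 12899 genes, with a threshold of 0.05. "Rose" and "fell" are used of genes past it. A gene entered the test with at least 0.474 CPM of unscaled library size in 3 libraries. A low gene may reach that only through the group where it is high, so its place among the tested genes is not independent of its change. This holds for Itgam, Itgax and Skap1 (each with 2 of 3 pMIR libraries at that level). It also holds for Itgb8, Lyz2, Jam2, Col1a1, Vcam1, Fyb, Runx2 and Ltbp1 (no pMIR library at it).

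Of the 10 chains, 9 passed the filter on low counts, 2 rose (Itgam and Itgb1), 2 fell (Itgal and Itgb7) and 5 did not pass the test. Among all genes tested, 23.2% rose and 20.0% fell, 43.2% in all, so 4 of 9 chains is a share near that of all genes. The median log2 fold change of the 9 was 0.10, beside −0.02 for all genes. The 4 chains past the threshold were also those whose libraries did not overlap between groups, which held for 56.5% of genes tested. For each of these 4 chains an exact two-sided permutation test over the libraries gave p = 0.1, the smallest that 3 against 3 allows.

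**Figure D1:**
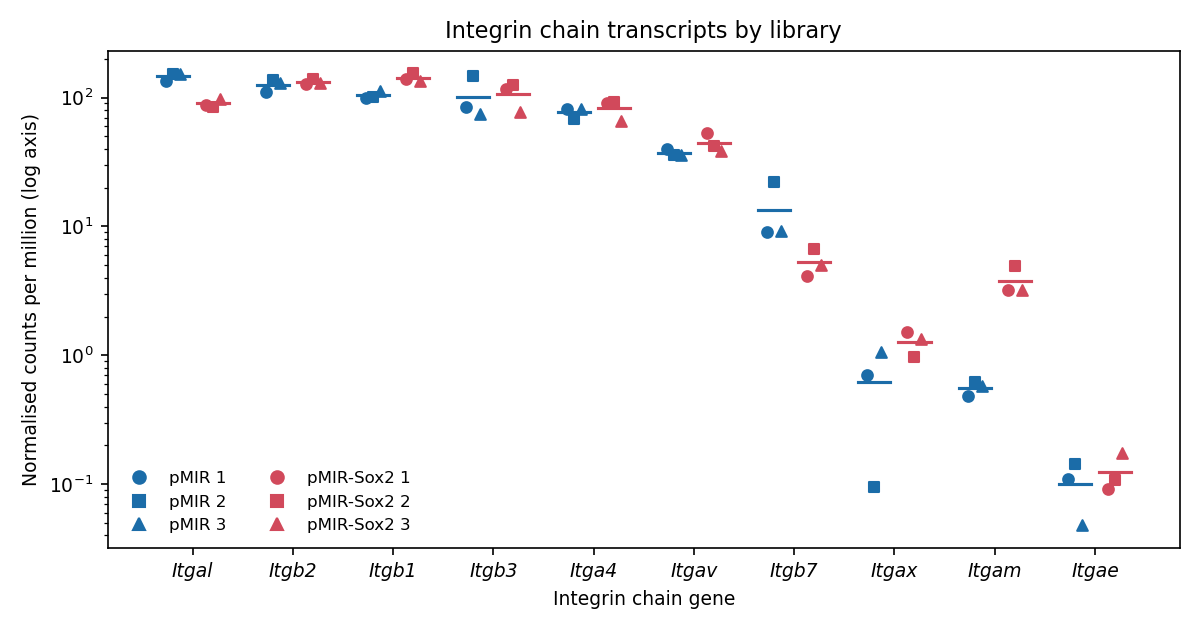
Normalised CPM (log axis) of the 10 integrin chains in each of the 6 libraries, blue for pMIR and red for pMIR-Sox2, with the marker shape giving the replicate and the bar the group mean. Itgal and Itgb7 lay lower and Itgb1 and Itgam higher in all 3 pMIR-Sox2 libraries, while the 2 groups overlapped for the other 6 chains.

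The chains that pair with Itgb2 went in opposite directions while Itgb2 itself did not pass the test. Itgal, the alpha chain of LFA-1 and the alpha chain of highest CPM in pMIR, was at 135, 151 and 154 CPM in pMIR replicates 1 to 3 and at 88.1, 85.0 and 97.8 CPM in pMIR-Sox2 replicates 1 to 3. Every pMIR-Sox2 library lay below every pMIR library. It was 1.63-fold lower, with a log2 fold change of −0.70 ± 0.10 (SE, edgeR adjusted p = 0.000704). Within the numbered pairs the log2 differences were −0.62, −0.83 and −0.65.

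Itgam, the alpha chain of the complement receptor Mac-1, was low in both groups. It was at 0.479, 0.620 and 0.576 CPM in pMIR and at 3.22, 4.98 and 3.19 CPM in pMIR-Sox2, from 13, 13 and 12 counts and from 70, 92 and 55 counts. The 2 groups were far apart relative to the spread within each. The log2 fold change was 2.76 ± 0.29 (edgeR adjusted p = 0.000149), a 6.78-fold higher level, and it kept to between 2.52 and 2.88 when any 1 library was left out. Itgam passed the filter only through pMIR-Sox2, so its place among the tested chains is not independent of its rise. No other of the 9 tested chains had a larger fold change in either direction.

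Itgax, the alpha chain known as CD11c and the next gene along the chromosome from Itgam, was at 0.701, 0.0953 and 1.06 CPM in pMIR and at 1.52, 0.974 and 1.33 CPM in pMIR-Sox2. The groups overlapped, since pMIR replicate 3 lay above pMIR-Sox2 replicate 2, and pMIR replicate 2 held only 2 counts. The log2 fold change of 1.04 ± 0.54 did not pass (edgeR adjusted p = 0.152). It passed with the replicate number as a block (log2 fold change 1.12, edgeR adjusted p = 0.0299), and was 0.55 (edgeR adjusted p = 0.249) without pMIR replicate 2 and 1.58 (edgeR adjusted p = 0.0745) without pMIR replicate 3.

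Itgb2, the shared beta chain of these receptors (CD18), was at 110, 136 and 130 CPM in pMIR and at 127, 140 and 131 CPM in pMIR-Sox2. The ranges overlapped, and the log2 fold change of 0.08 ± 0.11 did not pass (edgeR adjusted p = 0.583). Per kilobase of exon, the 3 alpha chains together were 98.6 to 99.4% Itgal in pMIR and 91.6 to 94.2% Itgal in pMIR-Sox2. The share of Itgam among them went from 0.458 to 0.532% in pMIR to 4.02 to 7.01% in pMIR-Sox2. Itgal thus stayed the main Itgb2 partner by transcript level in all 6 libraries.

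Markers of myeloid cells, which carry Itgam and Itgax, are given beside these values. The 7 macrophage and monocyte markers summed to 36.5 to 38.7 CPM in pMIR and 35.9 to 39.3 CPM in pMIR-Sox2, and 5 of the 7 were under 1 CPM in every library, among them Csf1r, Cd14 and Fcgr1. Of the 4 tested, Emr1, which encodes F4/80, rose from 18.6 ± 1.80 to 27.4 ± 2.61 CPM (n = 3 each). Lyz2, which passed the filter only through pMIR-Sox2, went from 2 counts in the whole pMIR group to 38 there, while Cd68 fell from 17.8 ± 1.22 to 8.18 ± 1.15 CPM. Of the 6 neutrophil markers, S100a8, S100a9 and Elane had no count in any library, and the 6 summed to 0.406 to 2.00 CPM in pMIR and 0 to 0.0580 CPM in pMIR-Sox2. The 6 dendritic cell markers summed to 33.1 to 42.7 CPM in pMIR and 10.5 to 14.0 CPM in pMIR-Sox2, and the 2 that were tested, Flt3 and Zbtb46, fell. The part of these cell types in the Itgam result was not tested beyond these values.

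The beta chains Itgb1 and Itgb7, which compete for the partner Itga4, moved apart. Itgb1, the beta chain of the VLA receptors, was at 99.5, 102 and 113 CPM in pMIR and at 139, 154 and 135 CPM in pMIR-Sox2. All 3 pMIR-Sox2 libraries were above all 3 pMIR libraries. Itgb1 was 1.37-fold higher (log2 fold change 0.45 ± 0.10, edgeR adjusted p = 0.0064), and the pair differences were 0.48, 0.60 and 0.26.

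Itgb7, whose pairing with Itga4 binds the gut addressin MAdCAM-1, was at 9.03, 22.3 and 9.17 CPM in pMIR and at 4.13, 6.71 and 5.04 CPM in pMIR-Sox2. The 2 groups did not overlap, but pMIR replicate 2 stood well above the other pMIR libraries. Itgb7 was 2.55-fold lower (log2 fold change −1.35 ± 0.37, edgeR adjusted p = 0.0163). Without pMIR replicate 2 it was −0.79 (edgeR adjusted p = 0.0235). The call ended without pMIR-Sox2 replicate 1 (−1.19, edgeR adjusted p = 0.0744) and with no filter on low counts (−1.33, edgeR adjusted p = 0.0973), and it held with the replicate block (−1.27, edgeR adjusted p = 2.33e-05). The pair differences were −1.13, −1.73 and −0.86.

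Itga4, the alpha chain shared by both, was at 82.2, 68.0 and 81.3 CPM in pMIR and at 90.0, 92.1 and 66.1 CPM in pMIR-Sox2. The pMIR-Sox2 group held both the highest and the lowest of the 6 values, and the log2 fold change of 0.10 ± 0.14 did not pass (edgeR adjusted p = 0.597). Itgae, the CD103 chain that pairs with Itgb7, had 3, 3 and 1 counts in pMIR and 2, 2 and 3 in pMIR-Sox2, and was not tested. The ratio of its pooled counts, pMIR-Sox2 to pMIR, was 1.20 with a counting interval of 0.359 to 4.00, so a difference inside that interval was not detectable at this depth. Gsg2, a kinase gene that lies inside the Itgae gene on the other strand, was at 21.7 ± 4.85 and 17.9 ± 3.01 CPM (n = 3 each).

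The chains of the vitronectin receptor did not pass the test. Itgav was at 39.8, 35.7 and 35.7 CPM in pMIR and at 52.9, 41.8 and 38.7 CPM in pMIR-Sox2. Only pMIR replicate 1 reached into the range of pMIR-Sox2. The log2 fold change was 0.26 ± 0.13 (edgeR adjusted p = 0.137), and Itgav was higher in pMIR-Sox2 in each pair, by 0.41, 0.23 and 0.12. It passed with the replicate block (log2 fold change 0.25, edgeR adjusted p = 0.0477) and without pMIR-Sox2 replicate 3 (0.36, edgeR adjusted p = 0.0448). With Itgax and Itgav, 4 chains rose and 2 fell with the block, beside 27.0% and 25.7% of all genes.

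Itgb3, known from platelets as the partner of Itga2b, was at 83.8, 146 and 74.3 CPM in pMIR and at 116, 126 and 77.1 CPM in pMIR-Sox2. Replicate 2 was the highest and replicate 3 the lowest library of both groups, so the spread within a group was larger than the difference between groups. The log2 fold change was 0.07 ± 0.26 (edgeR adjusted p = 0.845), with pair differences of 0.47, −0.21 and 0.05. Of the platelet and megakaryocyte markers, Ppbp and Gp9 had no count in any library, and the 5 markers summed to 1.49 to 2.16 CPM over the 6 libraries.

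**Figure D2:**
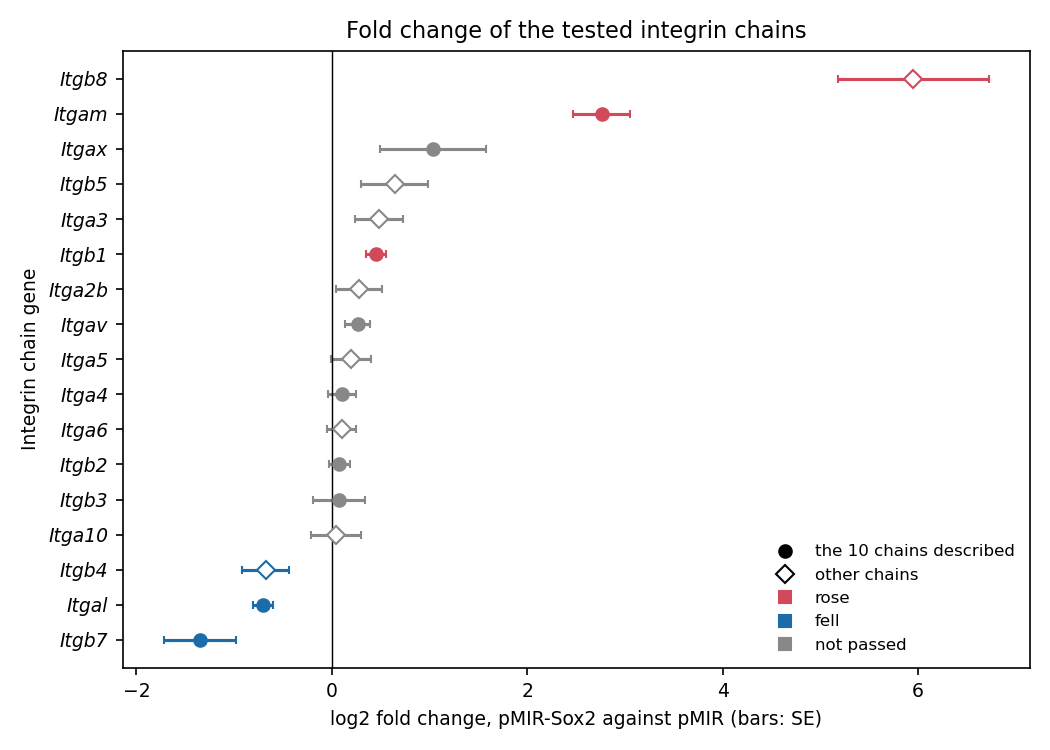
Log2 fold change of pMIR-Sox2 against pMIR with its standard error for the 9 tested chains of the set (filled circles) and 8 other integrin chains that passed the filter (open diamonds), red where the gene rose, blue where it fell and grey where it did not pass. Itgb8 and Itgam lay furthest to the right, and Itgb7 furthest to the left, at −1.35.

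Levels can be compared between chains once divided by exon length, as CPM per kilobase of the union of exons. In pMIR the order was Itgb2 (41.1 ± 4.43), Itgb1 (25.6 ± 1.75), Itgal (22.4 ± 1.52), Itgb3 (17.2 ± 6.62), Itga4 (5.52 ± 0.569), Itgb7 (4.87 ± 2.75), Itgav (3.45 ± 0.221), Itgax (0.129 ± 0.101), Itgam (0.111 ± 0.0143) and Itgae (0.0219 ± 0.0105), as mean ± SD of n = 3. The range of Itgb3 overlapped those of Itgal and Itgb1. Ranges also overlapped for Itga4 and Itgb7, for Itgb7 and Itgav, for Itgax and Itgam, and for Itgax and Itgae. In pMIR-Sox2 the order began with Itgb2 (43.4 ± 2.13) and Itgb1 (35.0 ± 2.47). Itgb3 (18.0 ± 4.39) then stood before Itgal (13.7 ± 1.02), with overlapping ranges, and Itgav (4.14 ± 0.698) before Itgb7 (1.91 ± 0.471), without overlap, while the ranges of Itga4 (5.92 ± 1.03) and Itgav met. Itgam (0.755 ± 0.204) came before Itgax (0.265 ± 0.0574), also without overlap. The order of Itgal and Itgb1 in pMIR depended on the gene model, since the longest transcript as length placed Itgal (28.1) before Itgb1 (27.4) and Itgav (5.25) before Itgb7 (5.03).

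Ratios between chains within a library do not depend on how the libraries were scaled. There were 9 ratios computed, chosen after the values were seen. Itgal per Itgb2 was 0.571, 0.518 and 0.548 in pMIR and 0.322, 0.283 and 0.348 in pMIR-Sox2, a log2 difference of −0.78. Every pMIR-Sox2 library had less Itgal per Itgb2 than every pMIR library.

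Itgb7 per Itgb1 was 0.134, 0.324 and 0.120 in pMIR and 0.0438, 0.0641 and 0.0550 in pMIR-Sox2, a log2 difference of −1.69. Itgb1 per Itgb2 went from 0.627 ± 0.0604 to 0.806 ± 0.0283 (n = 3 each), and Itga4 per Itgb1 from 0.216 ± 0.0233 to 0.169 ± 0.0235. The groups did not overlap in 7 of the 9 ratios, each of them with an exact permutation p of 0.1 and 0.129 after Benjamini-Hochberg adjustment over the 9, so none can pass at 3 against 3. Itgav per Itgb3, at 0.219 ± 0.0740 and 0.236 ± 0.0483, overlapped (exact permutation p = 0.7), and so did Itgax per Itgb2 (exact permutation p = 0.2).

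**Figure D3:**
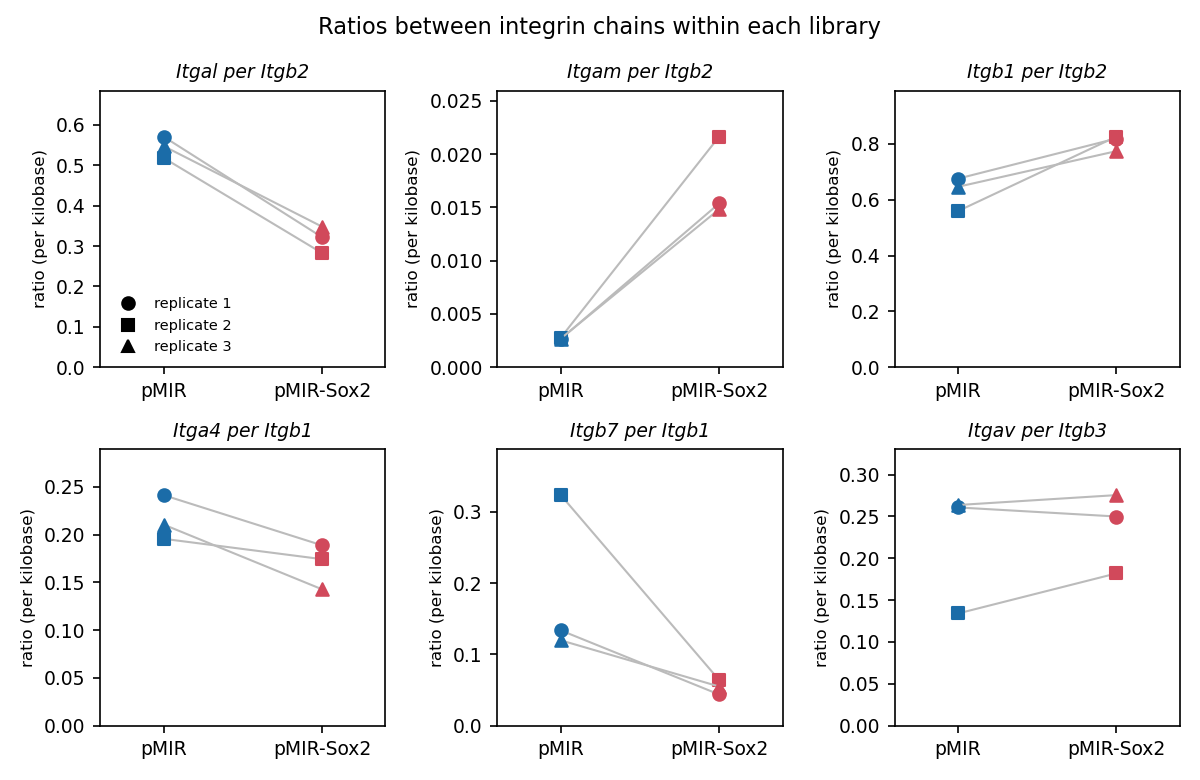
Ratios of CPM per kilobase between 2 integrin chains in each library, on axes that start at 0, with grey lines joining the libraries of the same replicate number. Itgal per Itgb2, Itga4 per Itgb1 and Itgb7 per Itgb1 were lower and Itgam per Itgb2 and Itgb1 per Itgb2 higher in all 3 pMIR-Sox2 libraries, while Itgav per Itgb3 overlapped.

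Of 17 further integrin chains, 8 were tested, 1 rose (Itgb8), 1 fell (Itgb4) and 6 did not pass, with a median log2 fold change of 0.24. The share called was 25%, beside 43.2% of all genes tested. Itgb8, a partner of Itgav that takes part in the activation of TGF-beta, had 2, 0 and 0 counts in pMIR and 76, 24 and 27 in pMIR-Sox2. The ratio of its pooled counts per effective library size was 76.1, with a counting interval of 20.6 to 635 at 95%. The edgeR adjusted p was 0.000396, for a gene that passed the filter only through pMIR-Sox2. All 3 pMIR-Sox2 libraries held it, replicate 1 most of all. Both pMIR counts were in replicate 1, and no ratio of pooled counts can be given without it. The edgeR log2 fold change without it was 8.41, which rests on no pMIR count.

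Itgb4, the beta chain of the laminin receptor of epithelia, fell from 1.89 ± 0.193 to 1.18 ± 0.0548 CPM (n = 3 each; −0.68 ± 0.24, edgeR adjusted p = 0.0434). This call was lost without any 1 of the 6 libraries (edgeR adjusted p from 0.0512 to 0.129) and with no filter, with library totals only or by the DESeq2 Wald test. Itga6, a laminin receptor chain, was at 30.3 ± 6.02 and 32.5 ± 1.48 CPM, and Itga5, of the fibronectin receptor, at 7.29 ± 1.82 and 8.36 ± 0.855 CPM. Itga3, Itga10, Itga2b and Itgb5 were below 5 CPM in both group means and did not pass either. The other 9 did not pass the filter and were under 1 CPM in every library, and Itgb6 had 0 counts in all 6, which allows up to 0.0237 CPM over them.

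The genes beside the integrin genes were not a uniform set. Of the 18 nearest protein-coding neighbours with a row in the table, 12 were tested, 4 rose, 3 fell and 5 did not pass. Over all genes tested 23.2% rose and 20.0% fell. Named after their values were seen, Fam171b, next to Itgav, rose from 0.837 ± 0.0655 to 118 ± 31.5 CPM (n = 3 each; 7.12 ± 0.25, edgeR adjusted p = 9.37e-07). Nrp1, next to Itgb1 and a co-receptor for semaphorins and VEGF, rose from 0.695 ± 0.123 to 14.1 ± 5.40 CPM (4.35 ± 0.35, edgeR adjusted p = 3.91e-05). Cerkl overlaps Itga4 on the other strand, at 2.57 ± 0.346 and 3.88 ± 0.305 CPM. The strand setting of the counting is not given in the sources used here, so reads of overlapping genes may not be told apart. Gm49368, a gene model of the newer annotation that overlaps Itgam on the same strand, has no row of its own.

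The gene whose pattern over the 6 libraries lay nearest to Itgam, of 12890 genes, was Camk2n1, an inhibitor of CaM kinase II, with a root mean square difference of 0.0758 in log2 CPM after centring on the pMIR mean. It was at 1.07 ± 0.159 and 7.25 ± 2.35 CPM. Vwa5a (0.0979) and Crot (0.107), a peroxisomal carnitine acyltransferase, came next. For Itgal the nearest were the helicase gene Ddx41 (0.0421), Gm15879 (0.0456) and the kinase gene Rps6ka1 (0.0467).

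Promoter sequences are shown for 3 of the chains past the threshold and for Itgax, the neighbour of Itgam that did not pass. They are the 250 bases before the start of the RefSeq transcript on GRCm38.p6, for Itgam at chr7:128062390-128062639 (plus strand), Itgax at chr7:128129300-128129549 (plus strand), Itgb1 at chr8:128685404-128685653 (plus strand) and Itgb7 at chr15:102231936-102232185 (minus strand). Each is written 5′ to 3′ along its gene, and capitals mark a match to GAGGAAG, a core of the binding site of the myeloid and B cell factor PU.1, or to its complement CTTCCTC.
Itgam: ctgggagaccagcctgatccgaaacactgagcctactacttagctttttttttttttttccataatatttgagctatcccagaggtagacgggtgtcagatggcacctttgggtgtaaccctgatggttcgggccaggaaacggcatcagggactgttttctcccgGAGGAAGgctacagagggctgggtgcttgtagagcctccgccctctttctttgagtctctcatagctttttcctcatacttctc
Itgax: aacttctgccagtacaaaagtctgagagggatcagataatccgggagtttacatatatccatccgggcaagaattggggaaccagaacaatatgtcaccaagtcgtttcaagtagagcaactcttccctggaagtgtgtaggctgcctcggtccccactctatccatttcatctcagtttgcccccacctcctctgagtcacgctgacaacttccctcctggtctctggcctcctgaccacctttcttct
Itgb1: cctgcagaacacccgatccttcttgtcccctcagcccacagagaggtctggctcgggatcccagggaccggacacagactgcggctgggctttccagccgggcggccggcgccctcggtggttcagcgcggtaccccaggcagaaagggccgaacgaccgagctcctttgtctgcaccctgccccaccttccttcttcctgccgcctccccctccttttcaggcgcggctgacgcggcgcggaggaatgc
Itgb7: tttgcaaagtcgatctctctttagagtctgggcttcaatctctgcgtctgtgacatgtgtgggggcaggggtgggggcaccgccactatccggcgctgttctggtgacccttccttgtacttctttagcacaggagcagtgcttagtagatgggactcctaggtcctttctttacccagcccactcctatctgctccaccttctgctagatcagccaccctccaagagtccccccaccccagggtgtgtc
Of these 4, Itgam held 1 match, starting 84 bases before the start, and the others held none. Itgav, which did not pass the test, held 1 as well, starting 8 bases before its start, so that 2 of the 6 members with an entry and 4 of 13 other chains held a match, beside 10.6% of 32851 promoter windows of 250 bases. The Sox core CATTGT and its complement ACAATG were found in 0 of the 6 members and 1 of the 13 other chains, beside 10.7% of windows. A match is a description of the letters and not a binding site.

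Among 28 genes for integrin ligands, 17 were tested, 6 rose, 4 fell and 7 did not pass, with a median log2 fold change of 0.54. The share called was 58.8%, beside 43.2% of all genes tested (23.2% rose, 20.0% fell). Of the 6 that rose, Jam2, Col1a1 and Vcam1 passed the filter only through pMIR-Sox2, and of the 4 that fell, Cdh1 only through pMIR. Icam1, the ligand of LFA-1 and Mac-1, was at 190, 97.2 and 162 CPM in pMIR and at 67.8, 51.2 and 74.3 CPM in pMIR-Sox2. It was lower in every pMIR-Sox2 library and fell by 1.22 on the log2 scale (SE 0.24, edgeR adjusted p = 0.00343). Jam2, a junctional adhesion molecule that binds VLA-4, had 1, 2 and 3 counts in pMIR and 139, 251 and 80 in pMIR-Sox2, a ratio of 93.9 (counting interval 42.8 to 257). Spp1, which encodes the Itgav ligand osteopontin, was at 4.46, 2.72 and 5.95 CPM in pMIR and at 21.4, 46.7 and 24.1 CPM in pMIR-Sox2. The collagen gene Col1a1 rose from 0.332, 0.191 and 0.384 CPM in pMIR to 1.70, 1.03 and 0.927 CPM.

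Of 16 tested genes of inside-out activation, which switch integrins to the binding state, 4 rose, 6 fell and 6 did not pass (median −0.02). This is 62.5% called, beside 43.2% of all genes tested. Among the rises, Fyb and Skap1 passed the filter only through pMIR-Sox2. Rasgrp2, the exchange factor CalDAG-GEFI for Rap1, was at 52.0, 109 and 49.0 CPM in pMIR and at 12.5, 21.5 and 19.9 CPM in pMIR-Sox2, with no overlap (−1.96 ± 0.33, edgeR adjusted p = 0.0016). Apbb1ip, the Rap1 effector RIAM, was at 133, 109 and 129 CPM and at 279, 277 and 220 CPM, also without overlap (1.07 ± 0.13, edgeR adjusted p = 0.000292). The adaptor Fyb had 1 count in the whole pMIR group and 52 in pMIR-Sox2, a ratio of 62.3 (counting interval 10.7 to 2508). Adap1, an Arf GTPase-activating protein that is not known as an integrin activator, fell by 1.68 on the log2 scale, and without it 5 of 15 fell.

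Of 14 tested genes for proteins that bind or restrain integrins or Rap1, 4 rose, 4 fell and 6 did not pass (median −0.00). Calls made up 57.1%, beside 43.2% of all genes tested. Cd82 was among those that fell and is counted again with the membrane partners below. The adaptor Dok2 fell from 15.4 ± 3.67 to 5.77 ± 0.219 CPM (n = 3 each), and its relative Dok1 was also lower, at 53.9 ± 1.27 in pMIR and 32.3 ± 3.86 CPM in pMIR-Sox2. Sipa1l1, a Rap GTPase-activating protein, rose from 95.9 ± 6.07 to 164 ± 29.6 CPM, and Krit1, which binds the Itgb1 partner ICAP-1, from 41.3, 45.8 and 41.5 CPM to 65.0, 70.9 and 57.0 CPM.

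Genes of the adhesion complex, which links the integrin tail to actin, rose in 8 of 23 tested members, fell in 2 and did not pass in 13 (median 0.16). The 43.5% called was near the 43.2% of all genes tested (23.2% rose, 20.0% fell). Vcl, which encodes vinculin, was at 14.5, 16.4 and 16.6 CPM in pMIR and at 50.1, 42.6 and 39.1 CPM in pMIR-Sox2 (1.47 ± 0.13, edgeR adjusted p = 5.17e-05). Lims1, the PINCH partner of integrin-linked kinase, rose from 96.5 ± 8.03 to 200 ± 24.0 CPM (n = 3 each), Actn1, an alpha-actinin, from 2.13 ± 0.705 to 12.4 ± 5.54 CPM, and Tns3, a tensin, from 8.37 ± 0.577 to 19.4 ± 5.36 CPM. Leaving out pMIR replicate 2, pMIR-Sox2 replicate 1 or pMIR-Sox2 replicate 2 gave 5 rises, and leaving out either pMIR replicate 2 or pMIR-Sox2 replicate 1 gave 1 fall.

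Of 16 kinases, exchange factors and GTPases downstream of integrins, 5 rose, 6 fell and 5 did not pass (median −0.01). The share called was 68.8%, beside 43.2% of all genes tested. Ptk2, the focal adhesion kinase, was at 27.8, 26.3 and 28.9 CPM in pMIR and at 105, 113 and 66.8 CPM in pMIR-Sox2 (1.78 ± 0.18, edgeR adjusted p = 0.000126). Its relative Ptk2b was at 258, 261 and 237 CPM and at 572, 574 and 519 CPM (1.14 ± 0.10, edgeR adjusted p = 6.76e-05). Both were higher in every pMIR-Sox2 library. Src rose from 6.25 ± 1.22 to 18.9 ± 1.43 CPM (n = 3 each), and the exchange factor Vav2 fell from 160 ± 3.66 to 82.5 ± 7.67 CPM. Only 3 fell when pMIR replicate 2 or pMIR-Sox2 replicate 1 was left out, or with library totals as the scaling.

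Of 13 membrane partners of integrins, 1 rose, 7 fell and 5 did not pass (median −0.51). That is 61.5% called, beside 43.2% of all genes tested (23.2% rose, 20.0% fell). Cd151, a tetraspanin that binds laminin receptors, rose from 2.96 ± 0.254 to 8.61 ± 2.51 CPM (n = 3 each). The tetraspanin Cd81 fell from 239 ± 21.0 to 167 ± 11.8 CPM, the tetraspanin Cd82 from 285 ± 53.5 to 167 ± 25.2 CPM, and Slc3a2, the CD98 heavy chain, from 197 ± 13.6 to 100.4 ± 26.7 CPM. Of 9 tested genes of integrin trafficking, 1 rose (Rab11a, 0.53), 2 fell (Hip1, −0.67, and Arf6, −0.49) and 6 did not pass. Here 33.3% were called, beside the same 43.2%.

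Of 16 genes of TGF-beta signalling, the pathway that Itgav receptors can activate and that induces Itgae in T cells, 2 rose, 3 fell and 11 did not pass. Those called were 31.2%, beside 43.2% of all genes tested. Tgfb1 fell from 229 ± 8.72 to 156 ± 14.8 CPM (n = 3 each), and Ltbp1, a latency binding protein, rose from 0.150 ± 0.0938 to 1.06 ± 0.447 CPM (2.72 on the log2 scale, and 3.39 without pMIR replicate 1). Ltbp1 passed the filter only through pMIR-Sox2. Skil fell by 0.40 and Smad4 rose by 0.37 on the log2 scale. Only 1 gene rose when any 1 pMIR library or pMIR-Sox2 replicate 1 was left out, and only 1 fell when replicate 1 of either group was. With the replicate block 5 fell. The 3 Runx genes and Cbfb, their shared partner subunit, encode factors that take part in the control of Itgae and Itgal. Runx3 fell (221 ± 14.4 to 130 ± 18.0 CPM, n = 3 each), Runx1 did not pass, and Cbfb rose (195 ± 8.47 to 369 ± 42.4 CPM). Runx2 rose too, with 5 counts in pMIR and 95 in pMIR-Sox2, through which alone it passed the filter.

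**Figure D4:**
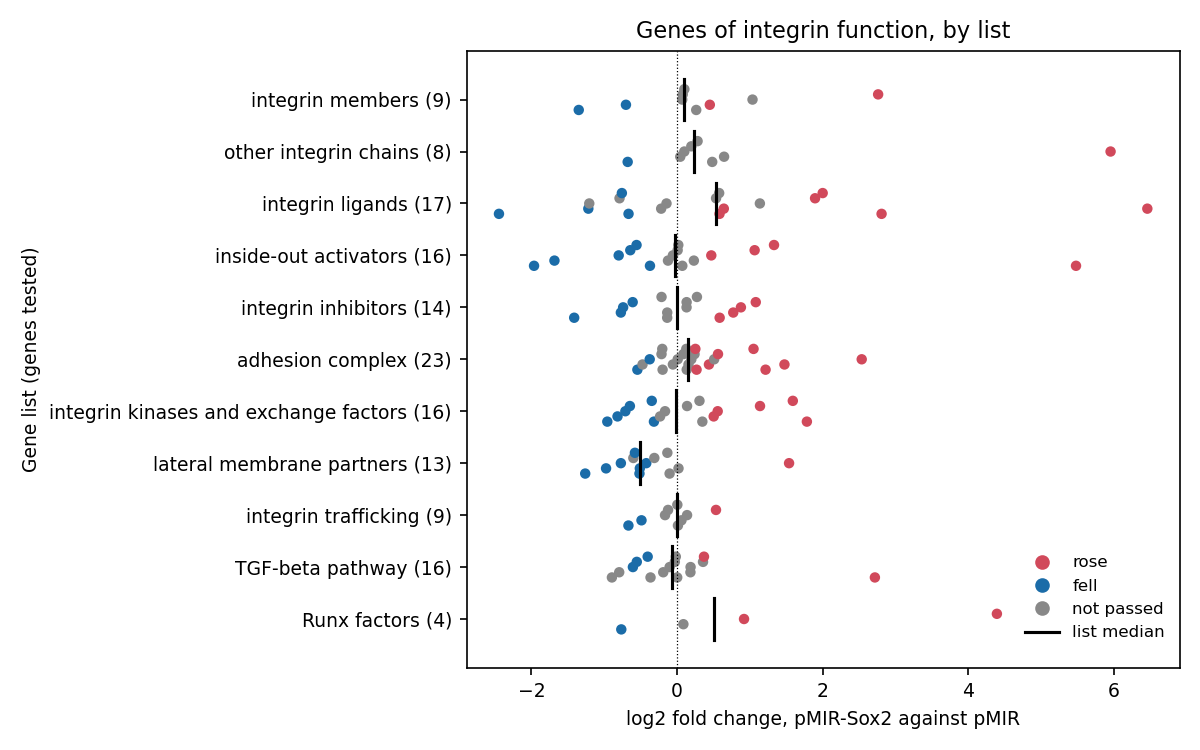
Log2 fold change of pMIR-Sox2 against pMIR of every tested gene in 11 lists of integrin function, with the number tested in brackets, the list median as a black bar, and red, blue and grey points for genes that rose, fell or did not pass. List medians lay between −0.51 for the membrane partners and 0.54 for the ligands, and genes of both directions are present in each list.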

How the data were processed

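The authors deposited 1 table of raw read counts, with a row for each Ensembl gene and a column for each of the 6 libraries. The submitters' processing notes name HTSeq 0.6.1p1, TopHat2 2.0.11, Trimmomatic 0.32, Bowtie2 2.2.2, the build mm9 and SAMtools 0.1.19, without saying what each did. The 5 closing lines that name no gene, 46.8 to 48.1% of a column's total, stayed out of library sizes and tests. Columns were matched to libraries by the sample descriptions.

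The groups were compared in R 4.3.3 by edgeR 4.0.16, on genes kept by filterByExpr with a minimum count of 10, with TMM factors and a robust quasi-likelihood fit. SE is the log2 fold change over the square root of F, and one count equals 0.0369 to 0.0580 CPM. Intervals cover counting error only, at 95%, and the limit of 0 counts is 3 counts. The script was tested on simulated counts. These had the same dispersion for every gene and no effect shared by replicate number, so its handling of either was not tested. Sox2 was left out of counts of genes. Exon lengths, overlaps and neighbours came from GENCODE M21 (GRCm38), and promoters from RefSeq, also another build than mm9. No protein sequences were used here.

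The members, lists and tests were chosen with earlier results of these data known. Text names the members, other tested chains, up to 4 genes of smallest adjusted p from each list, and markers. It also names overlapping or neighbouring genes, and the 3 genes nearest in pattern to the member of smallest adjusted p in each direction. Of 4 plasma cell markers tested, Prdm1 rose and Igj and Xbp1 fell. Of 3 endothelium or stroma markers tested, Col1a1 and Kdr rose and Cdh5 fell, each past the filter only through the group where it was high. Over all genes tested 43.2% were called. Libraries of the same description number deviated together from their group means over genes (log2 of CPM + 0.5; r = 0.27, 0.41 and 0.24 for the 3 pairs). The numbers were therefore used for the pair differences and the replicate block, although the labels do not say what they stand for. The main edgeR test and the permutation tests did not use the pairs. Libraries of a group differed by more than counting noise. Alternatives were DESeq2 1.42.0, limma-voom (limma 3.58.1), other scaling, no filter, the replicate block and leaving out each library.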

Additional observations from a re-analysis of the deposited data

How the results depend on the processing

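Itgal, Itgam and Itgb1 kept their direction and call under all 12 alternatives, with log2 fold changes of −0.76 to −0.63, 2.52 to 2.88 and 0.39 to 0.53. The replicate block brought the rises among the 10 chains from 2 to 4, by Itgax and Itgav. The falls were 1 with no filter. Leaving out 1 library gave 2 to 3 rises and 1 to 2 falls among them, 2362 to 3321 rises and 1783 to 2885 falls over all genes. In the same way Itgb2 ran from −0.013 to 0.13, Itgb3 from −0.11 to 0.42, Itga6 from −0.042 to 0.24, Itga10 from −0.087 to 0.28, and the log2 difference of Itgav per Itgb3 from −0.18 to 0.32. None of these passed a test.

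Other chains had 0 falls with library totals only, with no filter, by the DESeq2 Wald test and without any 1 library. Kinases had 3 falls with library totals only, and TGF-beta genes 5 falls with the replicate block. Without 1 library, rises ran from 5 to 8 and falls from 1 to 2 in the adhesion complex, falls from 3 to 6 among kinases, and both from 1 to 3 for TGF-beta. Gene by gene, the block was followed for the tested chains and for named list genes, markers and neighbours past the threshold. Among these it changed the calls of Itgax and Itgav only. Other list genes did change call with it, since TGF-beta genes had 3 falls in the main test. With the longest transcript as length the levels per kilobase were 28.1 and 17.3 for Itgal, 7.90 and 8.47 for Itga4, and 5.25 and 6.30 for Itgav, in pMIR and pMIR-Sox2, and 27.4 for Itgb1 in pMIR. The cause of these changes was not tested. The filter removed Itgae and 9 other chains. Tested by edgeR with no filter, 0 of the 9 of these with a count passed, and 1 (Itga8, 20 counts in pMIR and 4 in pMIR-Sox2, edgeR adjusted p = 0.0615) had an unadjusted p under 0.05.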
